A study of Rattus norvegicus with 9 samples.

Results

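Rab GTPases and Vps proteins direct membrane traffic through endosomes, and 73 of their genes were examined in vascular smooth muscle cells grown from the thoracic aorta of rats. The genes were taken by name: every gene whose symbol began with Rab or Vps followed by a digit, and whose level reached at least 1 FPKM in 3 or more of the 9 libraries. FPKM counts sequenced fragments for each kilobase of a gene model and scales them to all fragments that the library had in genes. Of 101 such symbols in the table, 67 Rab and 34 Vps, the level rule kept 42 and 31, out of 32792 genes listed and 8532 that met the same rule. The rule used name and level and not the change between groups, but it was set with earlier results of these data known.

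The 3 groups with n = 3 libraries each were compared. The control group carried the empty vector and was given bovine serum albumin (BSA), and its libraries are called BSA below. The next group carried the same empty vector and was given AGEs (advanced glycation end products, proteins altered by sugar, which build up in diabetes) for 24 h at 200 µg/mL, and its libraries are called AGEs. The last group overexpressed CTSD (cathepsin D, a lysosomal aspartic protease) after transfection and received AGEs as well, and its libraries are called CTSD. Every group had therefore been transfected. The 9 libraries include no CTSD group with BSA, so a change with CTSD in the absence of AGEs could not be measured. The labels do not give the vector or promoter, the strain or age of the rats, or whether each library had its own culture, so the p-values rest on a spread among libraries that could be technical in part. Values of the libraries are given below in the order of replicates 1, 2 and 3.

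Rab proteins are small GTPases that sit on a membrane when bound to GTP and recruit the motors, tethers and coats that move it. Each has a home: Rab5 the early endosome, Rab4 and Rab11 the recycling routes, Rab7 the late endosome and lysosome, Rab1 and Rab6 the Golgi. Vps proteins were named after yeast mutants that missorted vacuolar proteins. They build the retromer, which retrieves receptors from endosomes, the HOPS and CORVET tethers, which bring endosomes and lysosomes together for fusion, the ESCRT machinery, which packs membrane proteins into internal vesicles for degradation, and the GARP tether, which receives retrograde vesicles at the Golgi. Cathepsin D itself reaches the lysosome along these routes as a precursor.

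The libraries held 4492524 to 5341795 fragments in genes, and 10193 to 10392 genes above 0. Ctsd stood at 11.7 to 14.6 FPKM in the BSA libraries, at 13.2 to 14.8 in the AGEs libraries and at 195 to 203 in the CTSD libraries. An exact two-sided permutation test of CTSD against AGEs libraries gave p = 0.1, the smallest that 3 against 3 libraries allow. Of 10 smooth muscle markers, 5 met the level rule and Myocd was listed at 0 in all 9 libraries. Their summed level was 157 to 175 FPKM in the BSA, 138 to 139 in the AGEs and 213 to 217 in the CTSD libraries, with 1 marker called lower with AGEs and 3 called higher with CTSD. Of 4 endothelial, 5 macrophage, 4 fibroblast and 4 epithelial markers 2, 3, 1 and 2 were listed at 0, Cdh5, Ptprc, Lum and Epcam among them, and the summed level of each list reached at most 2.57 FPKM in any library. The smooth muscle markers therefore moved between the same groups as the genes below, and their part in those changes was not tested. In bulk RNA, fewer cells of a type and less RNA per cell cannot be told apart.

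The 28 Rab and Vps symbols outside the level rule never exceeded 1.40 FPKM, and 12 of them were listed at 0 in every library. Among those at 0 were Rab3a, Rab25 and Rab17, which are known from neurons or epithelia, but also Vps25, an ESCRT-II subunit found in most cells. Vps28, an ESCRT-I subunit, had 4 fragments over the 9 libraries. In this table a listed 0 can be a failed estimate, so it is not read as a silent gene. Just inside the rule stood Rab32, at 0.936, 0.829 and 0.551 FPKM in the BSA libraries, 1.51, 1.00 and 1.10 in the AGEs libraries and 0.828, 0.185 and 0.608 in the CTSD libraries. Just outside it were Rab38, a relative of Rab32 in lysosome-related organelles, with a mean of 0.657 FPKM, and Rab11fip2, an adaptor of Rab11, with 0.652. Rab32 met the rule through the AGEs libraries alone and the lipid transfer gene Vps13c through the BSA libraries alone, so a difference between groups was built into both. Both genes remain in the counts below.

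Mean levels ran from 0.839 FPKM for Rab32 to 739 for Rab7a. Over all libraries 15 genes averaged at least 100 FPKM, 38 lay from 10 to 100 and 20 below 10. The median was 28.7 FPKM for Rab-named and 17.5 for Vps-named genes, against 13.3 for all genes tested. Rab7a (ENSRNOG00000012247), the GTPase of late endosomes and lysosomes, had the highest level of the set. It stood at 730.3, 732 and 749 FPKM in the BSA libraries, 729, 742 and 759 in the AGEs libraries and 736, 754 and 719 in the CTSD libraries, and the groups overlapped throughout. Next came Rab5c of the early endosome with a mean of 461 FPKM, Rab1a and Rab2a of the endoplasmic reticulum and Golgi with 387 and 361, and Rab34, a regulator of lysosome position and of cilia, with 346. These 5 genes made up 39.7% of the summed FPKM of the 73. Among Vps genes, the retromer subunit gene Vps29 was highest, at a mean of 264 FPKM, and Vps35l, of the retriever complex, came next at 105.

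**Figure D1:**
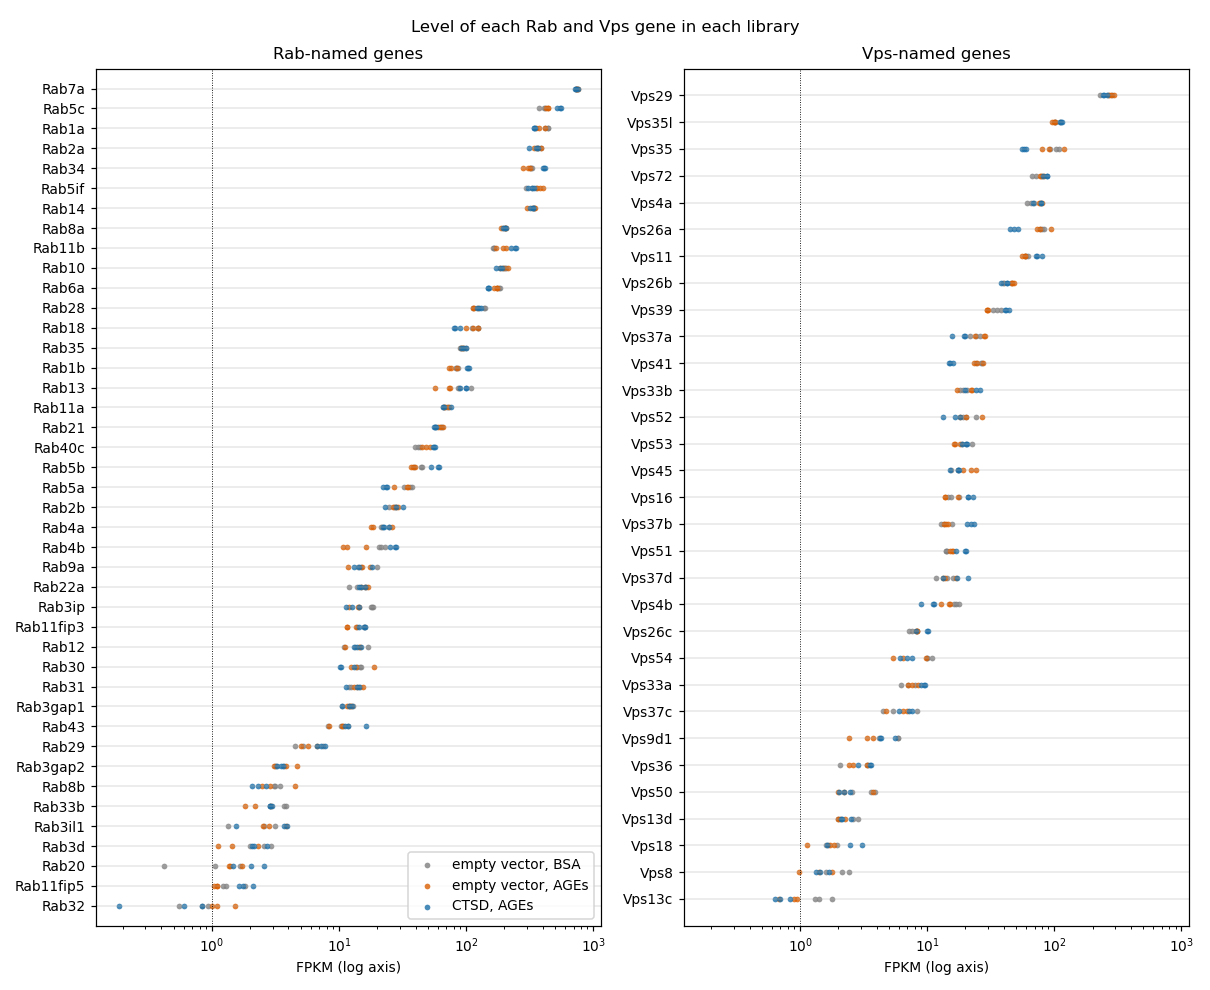
FPKM of each of the 73 genes in each of the 9 libraries on a log axis, Rab-named genes on the left and Vps-named genes on the right, ordered by mean level and coloured by group; the dotted line marks 1 FPKM. Rab7a leads the Rab genes and Vps29 the Vps genes, while Rab32 and Vps13c sit at the line.

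The comparison of AGEs with BSA libraries asks what the glycated proteins did to the traffic genes of empty-vector cells. Of the 73 genes 67 were not called. Rab4b, a GTPase of recycling endosomes, fell to 0.595 of its BSA level, and Rab13, which serves cell junctions and exocytosis, fell to 0.724. The ESCRT ATPase gene Vps4a rose to 1.20 of its BSA level. In all, 1 of 73 genes rose and 5 fell at an adjusted p under 0.05 (limma, Benjamini-Hochberg over the 8532 genes tested), 8.22% of the set, against 15% of all genes tested (with 6.05% higher and 8.92% lower). This fit left out a pairing of BSA and AGEs libraries by replicate number, and with replicates as blocks 4 rose and 5 fell. The median log2 change was -0.03 for the set and -0.06 for all genes tested. Ratios of levels are of mean FPKM, and a log2 change is the difference between group means of log2(FPKM + 1), which understates the change of genes near 1 FPKM.

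Rab4b (ENSRNOG00000001500, chromosome 1, 83979298 to 83990588 in the deposited annotation) returns receptors from early endosomes to the cell surface. It was measured at 20.8, 22.8 and 21.3 FPKM in the BSA libraries and 10.8, 16.2 and 11.5 in the AGEs libraries. The groups did not overlap, as for 23 of the 73 genes (31.5%, Rab32 and Vps13c included) and 32.5% of all genes tested. The log2 change was -0.73 (SE 0.13, adjusted p = 0.00545), and the call held under each of the 18 alternatives tried (highest adjusted p 0.0238). Its relative Rab4a had 24.5, 21.5 and 21.8 FPKM in the BSA libraries and 18.6, 25.9 and 17.8 in the AGEs libraries, which overlapped (log2 change -0.13, adjusted p = 0.532). The share of Rab4b in the summed Rab4 level was 48.9% ± 2.87 in the BSA and 38.2% ± 1.37 in the AGEs libraries (SD, n = 3).

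Rab13 was measured at 109, 85.8 and 87.8 FPKM in the BSA libraries and 57.4, 73.2 and 74.3 in the AGEs libraries, without overlap (log2 change -0.46, SE 0.11, adjusted p = 0.0224). Rab13 was not called without BSA replicate 1 or AGEs replicate 1, adjusted p up to 0.0740. Rab3ip, an exchange factor for Rab8, went from 18.1 ± 0.198 to 13.4 ± 1.32 FPKM (log2 change -0.41, adjusted p = 0.0255; not called without BSA replicate 1, 2 or 3 or AGEs replicate 3, adjusted p up to 0.0711). Vps39, a HOPS subunit that binds Rab7, went from 35.7 ± 2.61 to 29.7 ± 0.425 (log2 change -0.26, adjusted p = 0.0317) and did not pass with median-of-ratios scaling (adjusted p = 0.0923). It was not called without BSA replicate 1 or 3 or AGEs replicate 1 or 2, adjusted p up to 0.110. Vps9d1, which carries the Rab5-activating VPS9 domain, went from 5.33 ± 0.984 to 3.18 ± 0.674 (log2 change -0.60, adjusted p = 0.0464). It missed the threshold with replicates as blocks (adjusted p = 0.0666) and with median-of-ratios scaling (0.0617). In the fit with no blocks it was not called without BSA replicate 1 or 3 or AGEs replicate 1 or 2 or CTSD replicate 1, 2 or 3, adjusted p up to 0.154. Vps4a, whose product takes ESCRT-III filaments apart, had 61.5, 65.2 and 69.7 FPKM in the BSA libraries and 80.7, 77.8 and 76.2 in the AGEs libraries. All 3 AGEs values were above the BSA values (log2 change 0.26, SE 0.07, adjusted p = 0.0372; not called without BSA replicate 1 or 2 or AGEs replicate 1 or 2, adjusted p up to 0.121).

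The balance of the calls with AGEs rested on the scaling and on single libraries. With median-of-ratios scaling 6 genes rose and 3 fell, and with replicates as blocks 4 rose and 5 fell. Over all genes tested, rises made up 59.7% and 39.1% of the calls in these fits, against 40.4% with neither step. The block brought in Rab5if, Rab11b and Rab40c as higher (adjusted p 0.0277, 0.0433 and 0.0469) and Rab1a as lower (0.0469). The 6 calls became 2, 4 and 4 without BSA replicate 1, 2 and 3, and 3, 3 and 12 without AGEs replicate 1, 2 and 3. Calls over all genes tested moved as well, from 15% to 9.45%, 9.81% and 9.42% without a BSA library. Without an AGEs library they were 8.91%, 9.81% and 18.8%. The Rab genes of the early endosome, late endosome, lysosome-related organelles, and endoplasmic reticulum and Golgi, Rab28 and Rab40c, and the retromer, retriever, ESCRT-I and ESCRT-II, GARP and Vps13 genes had 0 calls with AGEs. Of these 42 genes, 8 had an unadjusted limma p under 0.05 and 4 were called by limma voom on recovered fragments. Over all genes tested, 2561 of 8532 had such a p, and voom called 18.1%. The 42 genes were put together for having 0 calls, so low counts among them are partly built in.

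**Figure D2:**
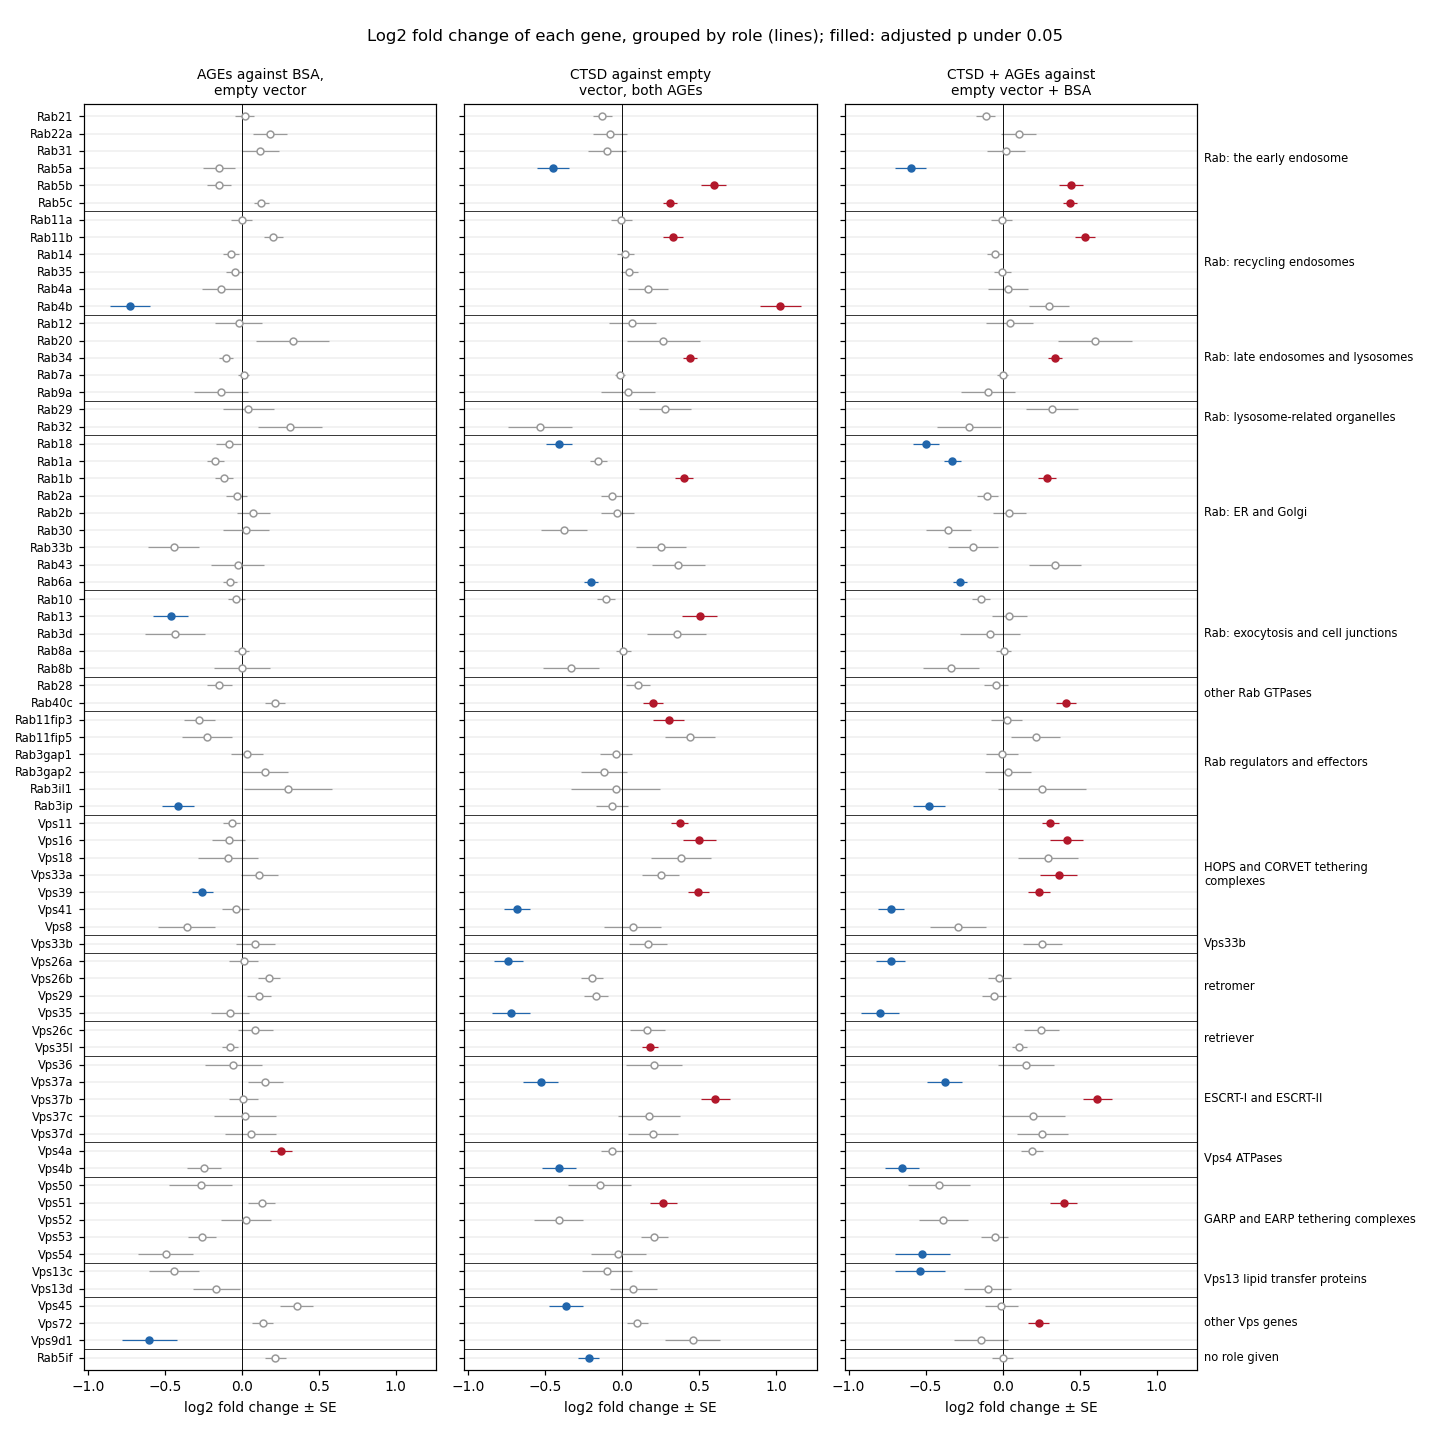
Log2 change ± SE of each of the 73 genes in the 3 comparisons, in rows grouped by role; filled points passed an adjusted p of 0.05, red higher and blue lower. With AGEs 6 points are filled, and with CTSD under AGEs 25, among which Rab5a and Rab5b, Vps37a and Vps37b, and Vps41 and Vps39 lie on opposite sides of 0.

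The comparison of CTSD with AGEs libraries asks what cathepsin D overexpression did to the same genes in cells that all received AGEs. Called genes lay on both sides among the Rab5, Vps37 and HOPS genes and the Rab genes of the endoplasmic reticulum and Golgi, while the called retromer genes both fell and the called recycling genes both rose. The retromer genes Vps26a and Vps35 fell to 0.591 and 0.595 of their level, and the HOPS gene Vps41 to 0.606, while its partners Vps11, Vps16 and Vps39 rose. Rab4b rose 2.09-fold, and among the Rab5 genes Rab5a fell while Rab5b and Rab5c rose. In all 15 of 73 genes rose and 10 fell, 34.2% of the set, close to the 30.7% of all genes tested (with 18.6% higher and 12% lower). With median-of-ratios scaling 11 rose and 14 fell, so the balance of rises and falls rested on the scaling. With that scaling the share of rises among calls went from 60% to 44% in the set and from 60.8% to 48.2% over all genes tested. The median log2 change was 0.05 for the set and 0.05 for all genes tested. The CTSD and AGEs libraries did not overlap for 36 genes (49.3%, Rab32 included), and for 43.9% of all genes tested. Of the 25 calls, 18 held under each of the 18 alternatives, and none of the 25 changed sign.

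Promoter sequence was examined for the 3 genes with the largest called changes over the 3 comparisons, Rab4b and the retromer pair Vps35 and Vps26a. The windows run from 250 bases before to 50 after the gene start, as RefSeq gives it on the rat build GRCr8, 5′ to 3′ along the gene. Capitals mark matches, on either strand, of 4 short motifs: CACGTG, an E-box core, TGACGTC of cAMP response elements, CCAAT, and TGACTCA of AP-1.
Rab4b promoter, GRCr8 chr1:91600288-91600587, minus strand: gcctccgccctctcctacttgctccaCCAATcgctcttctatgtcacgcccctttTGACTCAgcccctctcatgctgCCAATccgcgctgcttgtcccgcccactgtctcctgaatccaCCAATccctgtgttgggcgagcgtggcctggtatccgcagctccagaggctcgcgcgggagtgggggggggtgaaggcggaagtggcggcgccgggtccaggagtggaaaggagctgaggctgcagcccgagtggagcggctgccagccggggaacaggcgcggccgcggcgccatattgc
Vps35 promoter, GRCr8 chr19:37938739-37939038, plus strand: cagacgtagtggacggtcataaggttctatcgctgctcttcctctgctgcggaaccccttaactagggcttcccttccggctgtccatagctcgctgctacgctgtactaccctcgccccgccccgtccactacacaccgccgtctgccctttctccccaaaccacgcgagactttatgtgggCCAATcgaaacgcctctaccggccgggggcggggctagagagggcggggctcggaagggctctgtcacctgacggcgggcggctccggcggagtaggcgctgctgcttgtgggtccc
Vps26a promoter, GRCr8 chr20:30976840-30977139, minus strand: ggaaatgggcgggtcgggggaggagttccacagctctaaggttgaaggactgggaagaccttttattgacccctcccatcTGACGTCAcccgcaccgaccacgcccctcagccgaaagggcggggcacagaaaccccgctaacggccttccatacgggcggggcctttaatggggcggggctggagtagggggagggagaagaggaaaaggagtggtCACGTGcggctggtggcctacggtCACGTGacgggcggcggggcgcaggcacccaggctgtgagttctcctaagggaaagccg
In these windows Rab4b held 3 CCAAT matches and 1 TGACTCA match, Vps35 held 1 CCAAT match, and Vps26a held 2 CACGTG matches and a TGACGTC match on each strand that overlap each other. Vps35 and Vps26a shared none of the 4 motifs.

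In the early endosome Rab5 guides the fusion of incoming vesicles, and 3 genes encode it. Rab5a (ENSRNOG00000057056) stood at 37.5, 32.4 and 36.4 FPKM in the BSA libraries, 27.0, 34.4 and 34.8 in the AGEs libraries and 23.7, 23.4 and 22.1 in the CTSD libraries. Each CTSD value was below every empty-vector value (log2 change -0.45, SE 0.10, adjusted p = 0.00714). Rab5b (ENSRNOG00000006130) stood at 43.8, 38.8 and 44.9 FPKM in the BSA libraries, 39.8, 36.7 and 38.1 in the AGEs libraries and 60.5, 52.8 and 61.4 in the CTSD libraries. Here each CTSD value was above every empty-vector value (log2 change 0.59, SE 0.08, adjusted p = 3.40e-04). Rab5c (ENSRNOG00000018568), by far the most abundant of the 3, had 414, 377 and 414 FPKM in the BSA libraries, 444, 443 and 428 in the AGEs libraries and 561, 549.6 and 522 in the CTSD libraries. It rose by 0.31 in log2 (SE 0.05, adjusted p = 7.39e-04), again without overlap. The summed level of the Rab5 genes was 509 ± 7.18 FPKM in the AGEs and 625 ± 19.8 in the CTSD libraries. The share of Rab5a in it went from 6.31% ± 0.896 to 3.69% ± 0.0435. The other early endosome GTPase genes, Rab21, Rab22a and Rab31, had log2 changes of -0.13, -0.08 and -0.10 and did not pass. With median-of-ratios scaling Rab21 was called lower (log2 change -0.19, adjusted p = 0.0468).

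In the recycling endosome, 2 of 6 genes rose, where 18.6% of all genes tested were called higher. Rab4b stood at 27.5, 28.2 and 25.0 FPKM in the CTSD libraries, against the 10.8 to 16.2 of the AGEs libraries, with a log2 change of 1.03 (SE 0.13, adjusted p = 2.66e-04). It was the only one of the 73 genes with a called change of at least 1 in log2. The share of Rab4b in the Rab4 level was 53.7% ± 1.44 with CTSD. Rab11b (ENSRNOG00000007648), which with Rab11a runs the slow recycling route, stood at 166, 165 and 164 FPKM in the BSA libraries, 172, 205 and 195 in the AGEs libraries and 226, 243 and 249 in the CTSD libraries. The CTSD values were above those of both other groups (log2 change 0.33, SE 0.06, adjusted p = 0.00312). Rab11a, at 69.7 ± 3.37 and 69.5 ± 5.32 FPKM, had a log2 change of -0.01 (adjusted p = 0.959). Rab14 and Rab35, at 332 ± 9.58 and 95.7 ± 3.92 FPKM with CTSD, did not pass either (log2 changes 0.02 and 0.05), nor did Rab4a, at 23.2 ± 1.29 FPKM (log2 change 0.17, adjusted p = 0.367).

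Among 5 GTPase genes of late endosomes and lysosomes, 1 rose (18.6% of all genes tested were called higher). Rab34 (ENSRNOG00000023375) had 331, 324 and 318 FPKM in the BSA libraries, 309, 316 and 282 in the AGEs libraries and 413, 414 and 405 in the CTSD libraries. Its CTSD values lay above the rest (log2 change 0.44, SE 0.05, adjusted p = 9.14e-05). Rab7a, which recruits the HOPS tether and lysosomal motors, had a log2 change of -0.01 (SE 0.03, adjusted p = 0.811). Rab9a, of the route from late endosomes to the Golgi, stood at 15.2 ± 2.68 FPKM with CTSD, with a log2 change of 0.04 (adjusted p = 0.895), and Rab12 and Rab20, at log2 changes of 0.07 and 0.27, did not pass. Of the lysosome-related Rab29 and Rab32, Rab29 had a log2 change of 0.28 (adjusted p = 0.246) and Rab32 one of -0.53 (adjusted p = 0.0776), the latter on as few as 3 fragments in a library.

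Of 9 GTPase genes of the endoplasmic reticulum and Golgi, 1 rose and 2 fell (over all genes tested, 18.6% higher and 12% lower). Rab1b (ENSRNOG00000050510), needed for traffic from the endoplasmic reticulum, had 86.5, 82.9 and 84.0 FPKM in the BSA libraries, 84.7, 76.2 and 73.4 in the AGEs libraries and 101, 104 and 105 in the CTSD libraries. The CTSD values lay above the others (log2 change 0.40, SE 0.06, adjusted p = 5.42e-04). Its more abundant relative Rab1a had 438, 421 and 439 FPKM in the BSA libraries, 378, 357 and 419.6 in the AGEs libraries and 344, 342 and 347 in the CTSD libraries. The CTSD values were the lowest (log2 change -0.16, adjusted p = 0.0531; 0.00931 with median-of-ratios scaling). The share of Rab1b in the Rab1 level went from 16.9% ± 1.81 to 23.1% ± 0.301. Rab18 (ENSRNOG00000018972), of the endoplasmic reticulum and lipid droplets, fell from 112 ± 12.6 to 84.1 ± 4.68 FPKM (log2 change -0.41, adjusted p = 0.00383). Rab6a, of retrograde Golgi traffic, fell by 0.20 in log2 (adjusted p = 0.00611). Rab2a, Rab2b, Rab30, Rab33b and Rab43 did not pass, with log2 changes from -0.38 for Rab30 to 0.36 for Rab43. With median-of-ratios scaling Rab30 was called lower (log2 change -0.44, adjusted p = 0.0467). Rab2b overlaps the expressed gene Tox4 in the deposited annotation.

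Among exocytosis and junction GTPases, Rab13 (ENSRNOG00000016733) was the 1 of 5 to rise (18.6% of all genes tested were called higher). It had 99.7, 101 and 89.9 FPKM with CTSD, above all 3 AGEs values (log2 change 0.50, SE 0.11, adjusted p = 0.00698). Rab8a, a GTPase of exocytosis and cilia, stood at 199.6 ± 10.6 and 200.3 ± 5.16 FPKM (log2 change 0.01, adjusted p = 0.938), and Rab10, of regulated exocytosis, had a log2 change of -0.10 (adjusted p = 0.204). Rab8b and Rab3d, the latter of secretory granules, had log2 changes of -0.33 and 0.35 and did not pass. Rab40c, which joins a ubiquitin ligase, rose by 0.20 in log2 (adjusted p = 0.0395; 0.161 with median-of-ratios scaling; not called without BSA replicate 1 or AGEs replicate 1 or 3 or CTSD replicate 1, 2 or 3, adjusted p up to 0.117). Its gene body overlaps Mettl26 in the deposited annotation (8.74 FPKM), and how much of their exons is shared was not measured. Of 6 regulators and effectors, Rab11fip3, a Rab11 adaptor, rose by 0.30 in log2 (adjusted p = 0.0440; 0.102 with median-of-ratios scaling; not called without BSA replicate 2 or 3 or AGEs replicate 2 or 3 or CTSD replicate 1, 2 or 3, adjusted p up to 0.123). The Rab3 GTPase-activating subunits Rab3gap1 and Rab3gap2 had log2 changes of -0.04 and -0.12 and did not pass. Nor did the Rab8 exchange factors Rab3ip and Rab3il1, which had log2 changes of -0.07 and -0.04, or the adaptor Rab11fip5, which had a log2 change of 0.44 (adjusted p = 0.0618). Rab5if, named for its interaction with Rab5, fell by 0.22 in log2 (adjusted p = 0.0335; not called without AGEs replicate 1 or 2 or CTSD replicate 2 or 3, adjusted p up to 0.118).

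The retromer core is a trimer of Vps35, Vps29 and 1 of 2 Vps26 proteins. Vps35 (ENSRNOG00000017612, chromosome 19, 27464937 to 27500636), its scaffold, stood at 104, 91.9 and 108 FPKM in the BSA libraries, 90.8, 80.4 and 119.7 in the AGEs libraries and 57.7, 55.5 and 59.9 in the CTSD libraries. AGEs replicate 3 was the highest of the 9 libraries, and every CTSD value lay below the lowest empty-vector value. Vps35 fell by 0.72 in log2 (SE 0.12, adjusted p = 0.00142), with an adjusted p of 0.00106 without AGEs replicate 3. Vps26a (ENSRNOG00000030683, chromosome 20, 32086746 to 32115357) stood at 83.4, 79.9 and 77.4 FPKM in the BSA libraries, 77.3, 72.5 and 94.6 in the AGEs libraries and 44.5, 52.2 and 47.8 in the CTSD libraries. Again the CTSD values were below all others (log2 change -0.74, SE 0.09, adjusted p = 2.74e-04). Vps26b, the alternative subunit, went from 47.0 ± 0.987 to 41.0 ± 2.48 FPKM and did not pass (log2 change -0.20, adjusted p = 0.0632; 0.0231 with median-of-ratios scaling). Vps29, the most abundant subunit gene, had 267, 287 and 228 FPKM in the BSA libraries, 278, 297 and 268 in the AGEs libraries and 242, 259.6 and 248 in the CTSD libraries. Its CTSD values lay below the AGEs values and overlapped the BSA values, and the log2 change against AGEs was -0.17 (adjusted p = 0.123). In retriever, the related complex that works with the CCC complex, Vps35l rose by 0.18 in log2 (adjusted p = 0.0207; 0.116 with median-of-ratios scaling; not called without AGEs replicate 1 or CTSD replicate 2 or 3, adjusted p up to 0.0810), and Vps26c had a log2 change of 0.16 (adjusted p = 0.320).

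In the HOPS and CORVET tethers, 3 of 7 genes rose and 1 fell (over all genes tested, 18.6% higher and 12% lower). Vps41 (ENSRNOG00000012940), a HOPS-specific subunit, had 27.1, 26.4 and 24.3 FPKM in the BSA libraries, 27.7, 23.3 and 24.7 in the AGEs libraries and 15.9, 14.8 and 15.2 in the CTSD libraries. The CTSD values were the lowest (log2 change -0.68, SE 0.08, adjusted p = 2.23e-04). Vps39 (ENSRNOG00000008316), the other HOPS-specific subunit, had 35.6, 33.2 and 38.4 FPKM in the BSA libraries, 29.3, 29.6 and 30.2 in the AGEs libraries and 40.7, 44.2 and 41.7 in the CTSD libraries. Its AGEs values were the lowest and its CTSD values the highest (log2 change 0.49, SE 0.07, adjusted p = 4.51e-04). Vps11, of the core shared by HOPS and CORVET, rose from 57.7 ± 1.35 to 75.1 ± 4.02 FPKM (log2 change 0.37, adjusted p = 6.35e-04), and Vps16 of the same core from 15.0 ± 2.05 to 21.5 ± 1.04 (log2 change 0.50, adjusted p = 0.00579). The core genes Vps18 and Vps33a had log2 changes of 0.38 and 0.25 and did not pass, nor did the CORVET gene Vps8 (log2 change 0.07). Vps33b, a relative of Vps33a that works with Vipas39, stood at 23.3 ± 3.25 FPKM with CTSD (log2 change 0.17, adjusted p = 0.345).

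**Figure D3:**
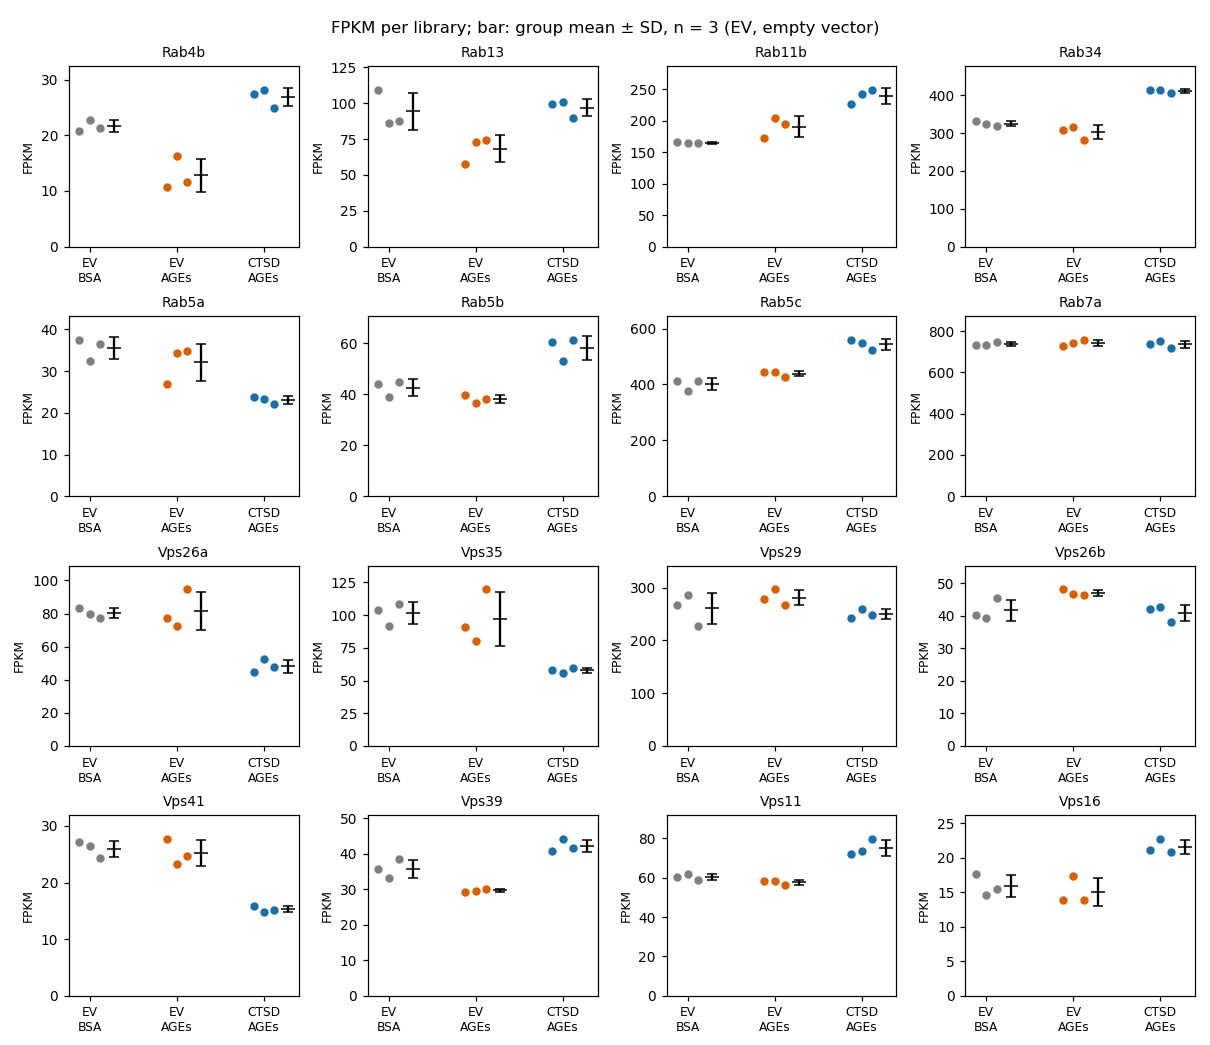
FPKM of 16 genes in each library, one panel per gene with its own axis from 0; dots are libraries by group (EV, empty vector), bars the group mean ± SD (n = 3). Rab4b, Rab13 and Vps39 are lowest with AGEs, Vps26a, Vps35, Vps41 and Rab5a are lowest with CTSD, and Rab7a runs from 719 to 759 FPKM.

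ESCRT-I holds 1 of 4 Vps37 proteins, and its genes went apart. Vps37a (ENSRNOG00000012001) had 25.9, 24.4 and 21.5 FPKM in the BSA libraries, 23.7, 28.3 and 28.2 in the AGEs libraries and 15.6, 19.3 and 19.9 in the CTSD libraries. It was lowest with CTSD (log2 change -0.53, SE 0.11, adjusted p = 0.00535). Vps37b (ENSRNOG00000001086) had 13.6, 12.8 and 15.6 FPKM in the BSA libraries, 14.6, 14.1 and 13.5 in the AGEs libraries and 23.2, 21.9 and 20.7 in the CTSD libraries. It was highest with CTSD (log2 change 0.60, SE 0.09, adjusted p = 8.08e-04). The share of Vps37a in the summed Vps37 level went from 43.4% ± 1.96 to 28.5% ± 3.63, that of Vps37b from 23.0% ± 2.52 to 34.3% ± 2.89. Vps37c, Vps37d and the ESCRT-II gene Vps36 had log2 changes of 0.18, 0.20 and 0.20 and did not pass. Of the Vps4 ATPases that recycle ESCRT-III, Vps4b fell from 14.2 ± 1.27 to 10.5 ± 1.30 FPKM (log2 change -0.41, adjusted p = 0.0162; not called without AGEs replicate 1 or CTSD replicate 3, adjusted p up to 0.0597). Vps4a had a log2 change of -0.07 (adjusted p = 0.532).

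**Figure D4:**
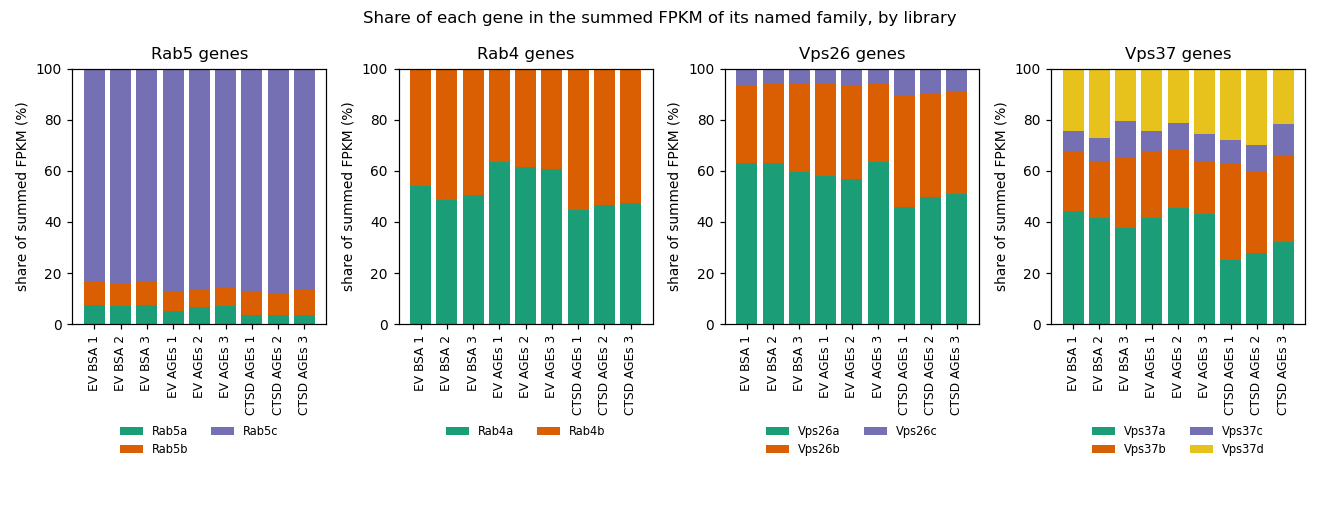
Share of each gene in the summed FPKM of the Rab5, Rab4, Vps26 and Vps37 genes, in percent, as stacked bars for each of the 9 libraries. The share of Rab4b is lowest in the 3 AGEs libraries, and the shares of Rab5a, Vps26a and Vps37a are lowest in the 3 CTSD libraries.

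In the GARP and EARP tethers of the Golgi and recycling endosome, Vps51, one of the subunits common to both, rose by 0.27 in log2 (adjusted p = 0.0416; 0.0987 with median-of-ratios scaling; not called without BSA replicate 1, 2 or 3 or AGEs replicate 1, 2 or 3 or CTSD replicate 1 or 2, adjusted p up to 0.142). Vps52, Vps53, Vps54 and Vps50 did not pass, with log2 changes from -0.41 for Vps52 to 0.21 for Vps53, which overlaps Rpl37 in the deposited annotation. Vps45, which controls SNARE pairing on endosomes, fell by 0.36 in log2 (adjusted p = 0.0266; not called without AGEs replicate 1 or 2 or CTSD replicate 3, adjusted p up to 0.101). The lipid transfer genes Vps13c and Vps13d had log2 changes of -0.10 and 0.07 and did not pass. Vps72, which despite its name belongs to a chromatin remodelling complex, had a log2 change of 0.10 (adjusted p = 0.309). Rab28, known from cilia and photoreceptors, had a log2 change of 0.10 (adjusted p = 0.379), and Vps9d1 had a log2 change of 0.46 (adjusted p = 0.0751).

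A further comparison set the CTSD libraries against the BSA libraries. It shares its control or its treated libraries with both comparisons above, so its values stand beside theirs and are no separate test of them. Of 73 genes 13 rose and 12 fell (34.2%, against 32.6% of all genes tested, with 16.3% called in each direction). The 12 include Vps13c, which met the level rule through the BSA libraries alone, so its fall was built in. The groups did not overlap for 33 genes, 45.2% of the set with Vps13c among them, and for 48.8% of all genes tested. Both retromer genes stayed lower than with BSA, Vps35 by 0.80 in log2 (adjusted p = 9.66e-04) and Vps26a by 0.73 (adjusted p = 4.27e-04). So did Vps41 (log2 change -0.72, adjusted p = 2.19e-04), Vps4b (log2 change -0.65, adjusted p = 0.00156) and Rab5a (log2 change -0.60, adjusted p = 0.00170). Higher than with BSA were Vps37b (log2 change 0.62, adjusted p = 9.32e-04), Rab11b (log2 change 0.53, adjusted p = 2.47e-04), Rab5b (log2 change 0.44) and Rab5c (log2 change 0.44).

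Side by side, 10 genes were higher with CTSD than in either empty-vector group without a call for AGEs alone, Rab11b, Rab1b, Rab34, Rab40c, Rab5b, Rab5c, Vps11, Vps16, Vps37b and Vps51. With replicates as blocks, Rab11b and Rab40c were also called higher with AGEs (adjusted p 0.0433 and 0.0469), and with median-of-ratios scaling so were these 2 genes and Rab5c (0.0263). Another 8 were lower than in either group without such a call, Rab18, Rab5a, Rab6a, Vps26a, Vps35, Vps37a, Vps41 and Vps4b. How many of all genes tested follow these patterns was not counted, so the numbers describe the set only. The CTSD comparisons share the CTSD libraries and called 30.7% and 32.6% of all genes tested. Against BSA, Vps16 was not called without BSA replicate 2 or CTSD replicate 2, adjusted p up to 0.0557, and Vps37a was not called without BSA replicate 1 or 2 or CTSD replicate 1, adjusted p up to 0.0965. Rab4b and Rab13 fell with AGEs and rose with CTSD under AGEs, and against BSA the CTSD libraries had log2 changes of 0.30 and 0.04 (adjusted p = 0.105 and 0.805). The fall and the rise share the AGEs libraries, so low values there give both, and they are not separate results. Vps39 followed the same pattern but ended 0.24 in log2 above BSA (adjusted p = 0.0246; not called without BSA replicate 1 or 2 or CTSD replicate 2 or 3, adjusted p up to 0.0873). Rab3ip was lower in both AGEs-treated groups, in log2 by 0.48 in the CTSD libraries (adjusted p = 0.00614). Called in this comparison alone were Vps33a (log2 change 0.36, adjusted p = 0.0394) and Vps72 (log2 change 0.23) as higher, and Rab1a (log2 change -0.33, adjusted p = 0.00150), Vps13c (log2 change -0.54) and Vps54 (log2 change -0.52) as lower. Vps33a was not called without BSA replicate 1 or 2 or CTSD replicate 1, 2 or 3, adjusted p up to 0.135. Vps72 was not called without BSA replicate 2 or 3 or CTSD replicate 1 or 2, adjusted p up to 0.0864. Vps54 was not called without BSA replicate 1, 2 or 3 or AGEs replicate 1 or CTSD replicate 1, 2 or 3, adjusted p up to 0.136, and Vps13c, which met the level rule through the BSA libraries alone, was not called without BSA replicate 1 or 3 or CTSD replicate 1 or 2, adjusted p up to 0.10. Of the 73 genes, 40 were not called in any of the 3 comparisons, and the same count over all genes tested was not made.

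Other genes of the endosomal machinery, 183 genes in 7 lists written from general knowledge, were counted in the same tests. Of 175 that were found, 143 met the level rule. With CTSD, 28 rose and 17 fell (31.5%, close to the 30.7% of all genes), and with AGEs 8 rose and 15 fell (16.1%, against 15% of all genes). The 23 calls with AGEs became 13, 12 and 11 without BSA replicate 1, 2 and 3, and 13, 15 and 26 without AGEs replicate 1, 2 and 3. The same fits called 9.45%, 9.81% and 9.42%, and 8.91%, 9.81% and 18.8%, of all genes tested. Among sorting nexins and retromer partners 6 of 28 fell with CTSD and 3 rose (32.1%, near the 30.7% of all genes). Snx2, a membrane-bending nexin that pairs with the retromer, had 80.6, 80.3 and 80.5 FPKM in the BSA libraries, 87.9, 79.4 and 91.8 in the AGEs libraries and 50.1, 51.7 and 56.1 in the CTSD libraries. The CTSD values lay below the rest (log2 change -0.70, SE 0.07, adjusted p = 4.20e-05). Its partner Snx6 fell from 38.9 ± 2.82 to 22.6 ± 3.15 FPKM (log2 change -0.76, adjusted p = 2.98e-04), and Snx7 by 0.87 in log2 (adjusted p = 0.00962). With AGEs this list had 2 falls, Washc4 of the WASH complex (log2 change -0.78, adjusted p = 0.0284; not called without BSA replicate 1 or 3 or AGEs replicate 1 or 2, adjusted p up to 0.101) and Snx17 (log2 change -0.21; not called without BSA replicate 1, 2 or 3 or AGEs replicate 1 or 3 or CTSD replicate 2, adjusted p up to 0.105).

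Rab chaperones and prenylation enzymes, which lipid-modify Rab proteins and shuttle them between membranes, had 2 rises and 2 falls among 6 with CTSD (66.7%, against 30.7% of all genes). Gdi2, which extracts Rab proteins from membranes, had 289, 289 and 263 FPKM in the BSA libraries, 298, 283 and 309 in the AGEs libraries and 170.3, 184 and 182 in the CTSD libraries. It fell by 0.73 in log2 (SE 0.05, adjusted p = 1.35e-05), with CTSD values below all others. The 2 subunit genes of the enzyme that prenylates Rab proteins parted, Rabggta at a log2 change of 0.58 (adjusted p = 0.00124) and Rabggtb at a log2 change of -0.57 (adjusted p = 0.00688).

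Rab exchange factors and GTPase-activating proteins had 7 rises and 0 falls among 41 with CTSD (17.1%, against 30.7% of all genes called and 18.6% called higher). With AGEs they had 2 rises and 6 falls (19.5%, against 15%). Sgsm2, a GTPase-activating protein, had 8.32, 6.97 and 7.53 FPKM in the BSA libraries, 3.34, 4.31 and 4.18 in the AGEs libraries and 9.30, 9.44 and 9.25 in the CTSD libraries. Like Rab4b it was lowest with AGEs (log2 change -0.80, adjusted p = 0.00234) and rose with CTSD (log2 change 1.07, adjusted p = 1.41e-04). Both changes use the same AGEs libraries and are not separate results. Madd, an exchange factor for Rab3 and Rab27, rose from 19.7 ± 0.230 to 29.5 ± 0.391 FPKM with CTSD (log2 change 0.56, adjusted p = 3.14e-04), and Tbc1d22a rose by 0.66 in log2. Madd stood at 25.3 ± 1.96 FPKM with BSA and was called lower with AGEs (log2 change -0.34, adjusted p = 0.0119). Its changes share the AGEs libraries too. Among Rab effectors 5 of 23 rose with CTSD and 0 fell (21.7%, against 30.7% of all genes called and 18.6% called higher). They included Ehd2 of caveolae (log2 change 0.75, adjusted p = 0.00436) and Plekhm1, which links Rab7 to HOPS (log2 change 0.53, adjusted p = 3.07e-04). Plekhm1 was also called lower with AGEs (log2 change -0.24, adjusted p = 0.0419), at 30.5 ± 0.495 FPKM with BSA and 25.7 ± 0.988 with AGEs. Both of its changes use the same AGEs libraries. With AGEs 2 of the 23 effectors rose and 4 fell (26.1%, against 15% of all genes). Ehd1 rose with AGEs from 132 ± 3.55 to 168 ± 5.69 FPKM (log2 change 0.34, adjusted p = 0.00206). Appl1, a Rab5 effector on early endosomes, fell with AGEs from 21.1 ± 2.46 to 13.2 ± 1.69 FPKM (log2 change -0.64, adjusted p = 0.00676) and stood at 10.6 ± 0.995 with CTSD.

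ESCRT partners had 6 rises and 4 falls among 18 with CTSD (55.6%, against 30.7% of all genes), with Chmp1a of ESCRT-III at a log2 change of 0.48 (adjusted p = 8.57e-04) and Chmp5 at a log2 change of -0.47 (adjusted p = 0.0103). With AGEs 3 rose (16.7%, against 15% of all genes), among them Hgs of ESCRT-0 (log2 change 0.24, adjusted p = 0.0140; not called without AGEs replicate 1, adjusted p up to 0.0502). The other calls were Pdcd6ip (log2 change 0.20, adjusted p = 0.0436) and Chmp3 (log2 change 0.19, adjusted p = 0.0322). Pdcd6ip was not called with replicates as blocks (adjusted p = 0.0664) or without any 1 of the 9 libraries (up to 0.135), nor Chmp3 with quantile normalization (0.0577) or without any 1 BSA or AGEs library (up to 0.107). The phosphoinositide enzymes had 2 rises and 4 falls among 12 with CTSD (50%, against 30.7% of all genes). Vac14, the scaffold of the PIKfyve kinase, rose from 31.2 ± 1.24 to 46.5 ± 1.54 FPKM (log2 change 0.56, adjusted p = 2.09e-04), and the phosphatase gene Mtmr2 fell by 0.49 in log2 (adjusted p = 0.00141). Vac14 stood at 38.4 ± 2.78 FPKM with BSA and was called lower with AGEs (log2 change -0.29, adjusted p = 0.0183). Its fall and its rise share the AGEs libraries and are not separate results. Among 15 endosomal SNARE genes 3 rose and 1 fell (26.7%, against 30.7% of all genes), with the SNARE-recycling adaptor gene Napa at a log2 change of 0.40 (adjusted p = 9.60e-04) and Stx12 of recycling endosomes at a log2 change of -0.36 (adjusted p = 0.00728).

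Of the 73 genes, 66 had a promoter window in RefSeq. CACGTG was found in 13 of them (19.7%), in 10.2% of the promoters of 6236 genes tested and in 6.65% of all 27457 promoters. These genes were Rab20, Rab21, Rab31, Rab3il1, Rab5a, Vps11, Vps16, Vps26a, Vps26c, Vps33a, Vps37b, Vps50 and Vps8, of which 3 rose with CTSD (Vps11, Vps16 and Vps37b), 2 fell (Rab5a and Vps26a) and the others did not pass. CCAAT was present in 39.4% of the set and 38.7% of the genes tested, TGACGTC in 6.06% and 5.82%, and TGACTCA in 4.55% and 2.92%. The median base composition was 62.3% G and C in the set and the same in the promoters of genes tested. These shares describe letters in a window and were not tested.

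The 73 genes lay on 20 chromosomes. Gene models had a median length of 2098 bases, 1590.5 for Rab-named and 2642 for Vps-named genes, against 2061 for all genes tested. With AGEs, the log2 changes of the 31 Vps-named genes went down with length (Spearman's rho -0.684 across genes). It was 0.0260 across the 42 Rab-named genes and -0.157 across all genes tested. With CTSD it was 0.174, -0.136 and -0.0122. The genes of a set share their libraries and are not independent replicates, so these are descriptions. With a trend in length removed from each library, 6 of the 73 genes rose and 3 fell with AGEs, Vps39 no longer passed (adjusted p = 0.258) and Rab4b still did (0.00451). With CTSD 11 rose and 15 fell, and Vps35, Vps26a and Vps41 passed with adjusted p of 3.63e-04, 2.32e-04 and 1.41e-04. Over all genes tested, 58.9% of calls with AGEs and 49.5% with CTSD were higher in this fit. Without that step they were 40.4% and 60.8%.

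**Figure D5:**
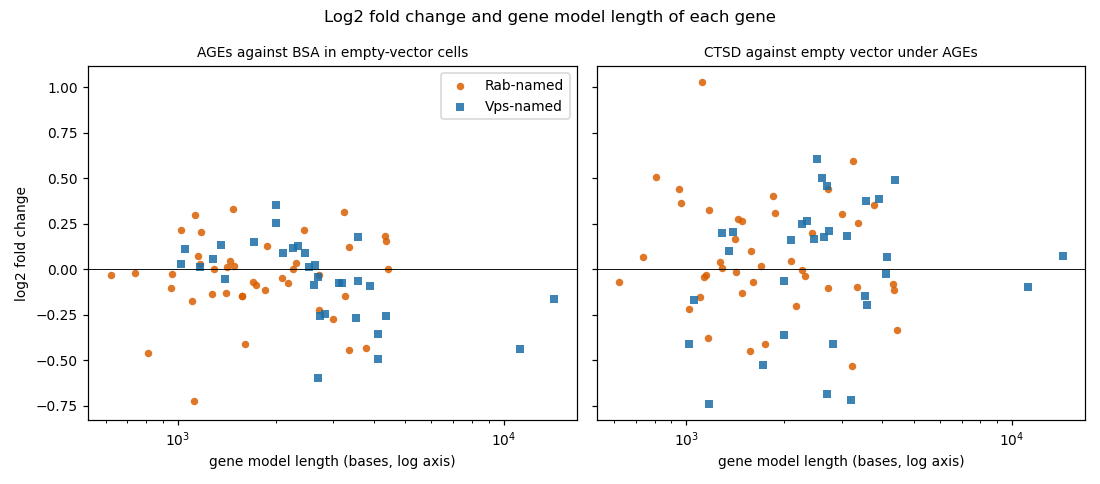
Log2 change of each of the 73 genes against gene model length in bases on a log axis, for AGEs against BSA on the left and CTSD against empty vector under AGEs on the right. The Vps-named genes slope downward with length on the left (rho -0.684), and on the right longer and shorter genes lie on both sides of 0.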

How the data were processed

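Poly(A) RNA of 9 cell samples was sequenced from a library kit that does not mark strand, per the labels' protocols. The authors aligned reads to a reference genome and deposited 1 table of FPKM per gene with rat gene identifiers, gene model length and positions, per the labels' protocols and the file headers. The submitters' processing notes name the mouse build mm10, and the aligner, counter and rat build behind the deposited positions were not given in the sources used here. All 9 library columns were used, 3 per group. FPKM times length, scaled by the depth recovered for the library, gave whole fragments within 0.1 for 99.4 to 99.6% of values under 200 fragments, and a level resting on 3 fragments is 0.562 to 0.668 FPKM for a gene model of 1 kb. Genes with at least 1 FPKM in 3 libraries (8532) entered 1 limma model (version 3.58.1, R 4.3.3, trended variance) on log2(FPKM + 1) over the 3 groups, and p-values were adjusted over all of them by Benjamini-Hochberg. A gene was called at an adjusted p under 0.05. Ctsd was also compared by an exact permutation test. The fit was also run on simulated data, and the outcome of that run is not used as support for the calls above.

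The genes, roles, lists and alternatives were chosen with earlier results of these data known. Called genes were named in full where a comparison had 16 or fewer, otherwise the 8 strongest rises and the 8 strongest falls were, with the most abundant gene of each role, relatives called differently, and up to 3 called genes per other list. Genes named beyond that rule complete their role and were added after their values were seen. Residuals of same-numbered BSA and AGEs libraries correlated at 0.135, 0.142 and 0.152 across genes, all above 0.1, so these numbers were taken to pair the libraries. The main fit nevertheless held no block, so its p-values for AGEs against BSA leave this pairing out. The block was fitted only as an alternative. For CTSD against AGEs the correlations were 0.0798, -0.0346 and 0.0740, and against BSA 0.0597, 0.00461 and 0.00303, and no pairing was taken. The 18 alternatives were another pseudocount (0.1), 2 filters, 2 scalings, a replicate block, the 2 groups alone, a length correction, limma voom on recovered fragments and leaving out each of the 9 libraries. Promoter windows came from RefSeq (GRCr8) and were matched by symbol, and 66 of the 73 genes had one. One gene of the other lists is not reported here.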

Additional observations from a re-analysis of the deposited data

How the results depend on the processing

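With AGEs the counts of Rab and Vps genes moved most, from 1 higher and 5 lower. The number higher was 0 without the filter (limma, Vps4a at an adjusted p of 0.0541), 5 at a mean of at least 5 FPKM, 6 with median-of-ratios scaling, 3 with quantile normalization, 6 with the length trend removed and 5 with voom. The number lower was 3 with median-of-ratios scaling, 2 with quantile normalization, 3 with the 2 groups alone, 3 with the length trend removed and 8 with voom. Over all genes of each fit, the share of calls that were higher moved from 40.4% as well. It was 42.1% without the filter, 42.6% at a mean of at least 5 FPKM and 59.7% with median-of-ratios scaling. Quantile normalization gave 51.7%, the 2 groups alone 42.7%, the length correction 58.9% and voom 36.9%. With the replicate block 4 were higher and 5 lower, Vps9d1 was lost and Rab1a, Rab5if, Rab11b and Rab40c were gained. Leaving out 1 library gave 0 to 4 higher and 1 to 8 lower, and 11 to 26 calls among the other endosome genes, against 23 with all libraries. Over all genes tested, these fits called 8.91% to 18.8%, against 15% with all libraries. Which step caused these moves was not tested. For CTSD, where the numbers did not pair the libraries, the replicate block gave 13 higher and 11 lower against AGEs (Rab11fip3 and Vps51 lost), and 12 and 11 against BSA (Vps33a and Vps54 lost). Rab1a was gained against AGEs, and the block changed no other call of the 73 genes. Voom called 1546 genes of all tested with AGEs, 2756 with CTSD against AGEs and 2992 with CTSD against BSA. In the CTSD comparisons both counts stayed within 1.5 times under every alternative, and no named gene that passed turned its direction. At this depth a gene near 1 FPKM rests on few fragments, so a missing call for Rab32 says little.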
